A study of Homo sapiens with 6 samples.

Results

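Podoplanin, the TIE receptors, VE-cadherin and 6 related genes that mark lymphatic or blood vessel endothelium were followed in 2 human breast cancer cell lines. The 10 genes were found by symbol among the 61541 genes of a deposited table of read counts. Of these, 4 are lymphatic genes (PDPN, PROX1, LYVE1 and SOX18) and 6 are blood vessel genes (TIE1, TEK, ANGPT1, CDH5, PECAM1 and MCAM). They were chosen by their known roles with their counts in these same libraries in view, so their differences between the lines are given as a description, with no test. The first line is MDA-MB-231-D3H2LN, called MDA231-LN, a commercial subline with a luciferase gene that had been taken from a nodal metastasis in a mouse. It was set against its parent, MDA-MB-231, a breast cancer line without hormone receptors or HER2 amplification. Each was sequenced as 3 bulk libraries of total RNA, from cells kept in high-glucose DMEM with 10% serum and with no treatment named. Each kind of cell is a single line, so lymph node origin cannot be told apart from any other difference between the lines. The labels do not state whether replicates were grown as separate cultures, and p-values then measure only a spread that may be technical.

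In an embryo, lymphatic vessels arise from veins when SOX18, acting with NR2F2, switches on PROX1, the transcription factor that sets and keeps lymphatic identity. Podoplanin and the hyaluronan receptor LYVE1 then mark the new lymphatic cells. Blood vessels are held together by VE-cadherin (CDH5) and PECAM1 at cell junctions, and are stabilised by angiopoietin-1 (ANGPT1), a secreted ligand of the receptor TEK, whose partner receptor is TIE1. Several of these genes are also active outside vessels: podoplanin is known from the invading edge of carcinomas, and MCAM, first described in melanoma, from mesenchymal tumor cells.

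The libraries held 17661542 to 18882719 counted fragments in MDA231-LN and 16461578 to 19171017 in the parental line. Of all genes 14176 had enough counts to be tested. With the quasi-likelihood test of edgeR and a Benjamini-Hochberg adjusted p of 0.05 as the threshold 62.8% of them passed, 31.6% in the higher and 31.2% in the lower direction in MDA231-LN. The 6 genes taken for basal-like breast cancer lines were abundant, and no subtype is read from them. VIM stood at 1993 CPM in MDA231-LN and 1091 CPM in the parental line (CPM, each count scaled to a common library size after TMM normalization). EGFR stood at 328 CPM in MDA231-LN and 632 CPM in the parental line, and the keratin gene KRT8 at 578 CPM in MDA231-LN and 608 CPM in the parental line. Of 4 genes taken for hormone receptor positive breast cancer, the HER2 gene ERBB2 among them, 1 in each line had at most 3 counts. This was the progesterone receptor gene PGR, with 0 counts in MDA231-LN and 1 in the parental line. The estrogen receptor gene ESR1 had 54 counts in MDA231-LN and 9 in the parental line. The summed level of the 4 genes was 104.8 to 110 CPM in MDA231-LN and 106 to 117 CPM in the parental line. ERBB2 carried it, at 89.8 CPM in MDA231-LN and 90.4 CPM in the parental line. Of 6 leukocyte markers 3 in MDA231-LN and 4 in the parental line had at most 3 counts over the libraries, and their summed level was 1.18 to 2.97 CPM in MDA231-LN libraries and 1.16 to 2.79 CPM in parental ones. Of 6 fibroblast and pericyte markers 3 in each line had at most 3 counts, with sums of 6.21 to 6.99 CPM in MDA231-LN and 7.25 to 11.4 CPM in the parental line. Of 10 endothelial markers 2 in MDA231-LN and 3 in the parental line had at most 3 counts, and their summed level was 41.1 to 43.4 CPM in MDA231-LN and 219 to 233 CPM in the parental line. ESAM, with 12.1 CPM in MDA231-LN and 189 CPM in the parental line, carried most of the parental sum. ROBO4 stood at 19.0 CPM in MDA231-LN and 22.3 CPM in the parental line, and KDR had 82 counts in MDA231-LN and 141 in the parental line. PLVAP had 2 counts in MDA231-LN and 0 in the parental line, and CDH5 had 3 in MDA231-LN and 0 in the parental line.

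PDPN, PROX1 and SOX18, which are 3 of the 4 lymphatic genes, lay higher in every MDA231-LN library than in any parental one, as did ANGPT1 among the blood vessel genes. TIE1 and MCAM lay lower in every MDA231-LN library. TEK, CDH5 and PECAM1 overlapped between the lines, and LYVE1 could not be measured. Among all tested genes 33.8% lay higher in every MDA231-LN library and 32.8% lower, together 66.6%. Those that were also at least 2-fold different made up 13.1% on the higher and 7.48% on the lower side. Since the values helped to choose the 10 genes, nothing is read from their count against these shares. Enough counts for the fit were reached by 7 of the 10. PDPN, PROX1 and SOX18 reached them through the MDA231-LN libraries alone and TIE1 through the parental libraries alone, so these 4 had to differ.

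**Figure D1:**
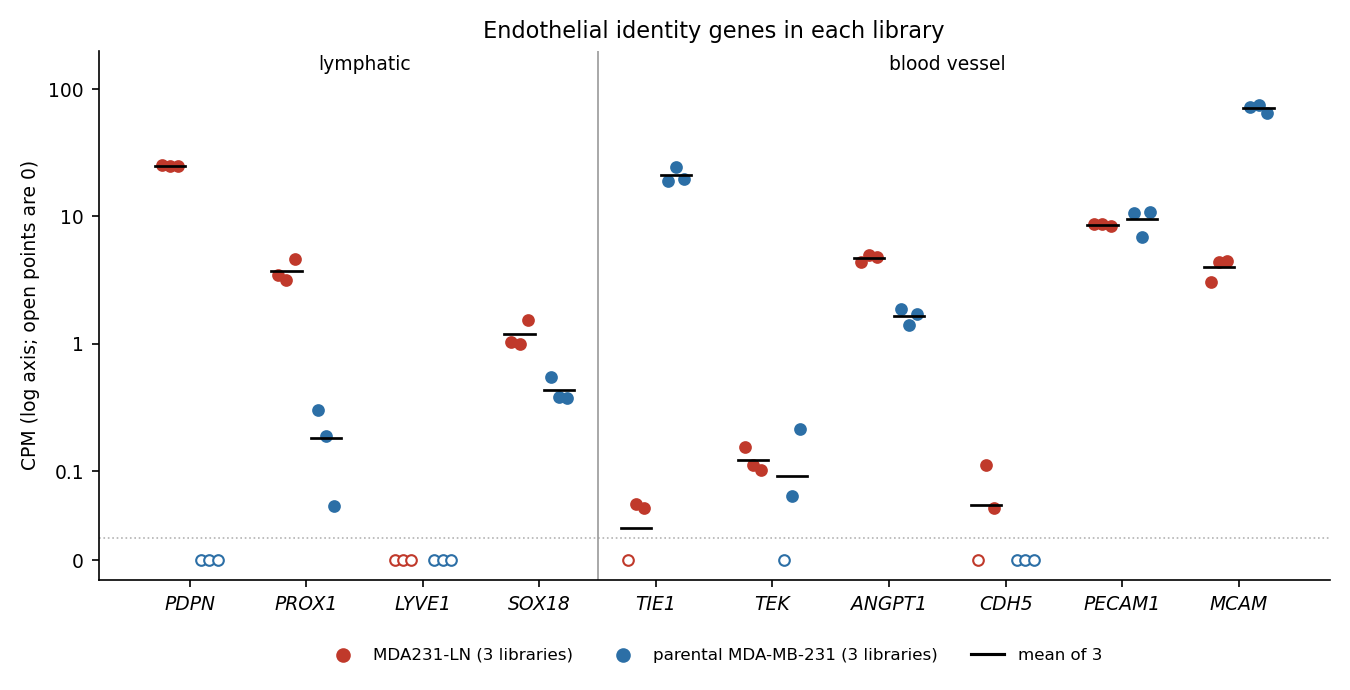
Level of each of the 10 genes in each library, in CPM on a log axis, with libraries at 0 drawn as open points under the dotted line. Each filled point is a library and each bar the mean of the 3 libraries of a line. PDPN reached 24.8 to 25.2 CPM in MDA231-LN with 0 counts in the parental libraries, and TIE1 stayed at or under 0.0554 CPM in MDA231-LN while parental libraries held 19.1 to 24.6 CPM.

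PDPN encodes podoplanin, a heavily O-glycosylated membrane protein that binds the platelet receptor CLEC-2 on the outside and ezrin and moesin on the inside. The MDA231-LN libraries held 492, 448 and 482 PDPN fragments, or 25.2, 24.8 and 24.8 CPM, and the 3 parental libraries held 0. The replicates of MDA231-LN were nearly alike, at 24.9 ± 0.232 CPM (SD, n = 3), and the lines did not overlap. Against a floor of 3 counts over the 3 parental libraries, which is 0.059 CPM, PDPN was at least 423-fold higher in MDA231-LN. In bulk RNA, fewer cells with a transcript and less of it per cell cannot be told apart, here or for any other gene. PDPN lies on chromosome 1 from 13583465 to 13617957 of GRCh38 on the plus strand, and no other annotated gene overlaps it.

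PROX1 followed at a lower level. It had 68, 57 and 90 counts in the MDA231-LN libraries (3.48, 3.16 and 4.63 CPM), against 5, 3 and 1 in the parental libraries (0.305, 0.19 and 0.0535 CPM). Every MDA231-LN library was above every parental one, with means of 3.76 ± 0.770 CPM in MDA231-LN and 0.183 ± 0.126 CPM in the parental line (SD, n = 3 each) and a fitted log2 fold change of 4.35 ± 0.47 (SE). PROX1 spans 213983181 to 214041510 of chromosome 1, and its antisense partner PROX1-AS1 overlaps it; other genes cover 12.6% of that span and 7.8% of its exonic bases. The counting ignored strand and left out fragments that touched both genes, so a part of the reads of either gene could not be assigned. PROX1-AS1 had 22, 30 and 25 counts in MDA231-LN and 7, 1 and 2 in the parental line. Its fitted log2 fold change was 2.74 ± 0.60 (SE). It reached enough counts for the fit through the MDA231-LN libraries alone, so it had to differ, and no p is given. Without parental replicate 1, which held 7 of its 10 parental counts, the log2 fold change of PROX1-AS1 was 3.86.

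SOX18, the SOXF transcription factor upstream of PROX1 in mouse embryos, had low counts in both lines. It had 20, 18 and 30 counts in MDA231-LN (1.02, 0.998 and 1.54 CPM) and 9, 6 and 7 in the parental line (0.548, 0.38 and 0.375 CPM). The lines did not overlap, the means were 1.19 ± 0.307 CPM in MDA231-LN and 0.434 ± 0.0987 CPM in the parental line (SD, n = 3 each), and the fitted log2 fold change was 1.44 ± 0.49 (SE). SOX18 is a compact gene on chromosome 20 from 64047582 to 64049639 of the minus strand. Of its SOXF relatives SOX7 had 4 counts in MDA231-LN and 5 in the parental line, and SOX17 had 0 in both.

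LYVE1, the lymphatic hyaluronan receptor, was listed at 0 in all 6 libraries. The whole of its span, on chromosome 11 from 10556966 to 10611689, lies inside IRAG1 and the antisense gene IRAG1-AS1, and all of its exonic bases are covered in this way. Because fragments that touch more than 1 gene were left out, a LYVE1 fragment could not have been counted, and the 0 is no measure of its level. IRAG1 itself had 3 counts in MDA231-LN and 0 in the parental line.

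TIE1, an orphan receptor tyrosine kinase that modulates signals of TEK in endothelium, was nearly absent from MDA231-LN. It had 0, 1 and 1 counts in the MDA231-LN libraries (0, 0.0554 and 0.0514 CPM), against 314, 388 and 367 in the parental libraries (19.1, 24.6 and 19.6 CPM). No parental library came near an MDA231-LN one, and the means were 0.0356 ± 0.0309 CPM in MDA231-LN and 21.1 ± 3.01 CPM in the parental line (SD, n = 3 each). The 2 MDA231-LN counts against 1069 parental ones gave a ratio of 599 parental to MDA231-LN, with an exact 95% counting interval of 165 to 4953. TIE1 lies on chromosome 1 from 43300982 to 43323108 of the plus strand and shares no base with another annotated gene. At its parental level TIE1 lay above 48.5% of the tested genes.

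TEK, the angiopoietin receptor also called TIE2, was close to the counting floor in both lines. It had 3, 2 and 2 counts in MDA231-LN and 0, 1 and 4 in the parental line, and the lines overlapped. The ratio of MDA231-LN to parental counts was 1.25 with an exact 95% counting interval of 0.341 to 4.99, and a difference inside that interval was not detectable at this depth. TEK lies on chromosome 9 from 27109141 to 27230174 of the plus strand.

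ANGPT1, the secreted agonist of TEK, had 85, 90 and 94 counts in MDA231-LN (4.35, 4.99 and 4.83 CPM) and 31, 22 and 32 in the parental line (1.89, 1.39 and 1.71 CPM). All MDA231-LN libraries were higher, and the fitted log2 fold change was 1.5 ± 0.26 (SE), from means of 4.72 ± 0.331 CPM in MDA231-LN and 1.67 ± 0.251 CPM in the parental line (SD, n = 3 each). ANGPT1 spans 248574 bases of chromosome 8, from 107249482 to 107498055, of which 7128 are exonic, and the counts cover introns too. The MDA231-LN libraries thus held more of the ligand transcript and, with 7 counts in MDA231-LN and 5 in the parental line, next to none of the transcript of its receptor TEK.

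Of the junction genes, CDH5, which encodes VE-cadherin, had 0, 2 and 1 counts in MDA231-LN and 0 in every parental library. Both lines were at or under the floor of 3 counts, which is 0.0526 CPM in MDA231-LN and 0.059 CPM in the parental line, so no fold is given. PECAM1, an immunoglobulin-family adhesion molecule of endothelium, platelets and leukocytes, was present in both: 171, 156 and 163 counts in MDA231-LN (8.76, 8.65 and 8.38 CPM), against 176, 109 and 204 in the parental line (10.7, 6.91 and 10.9 CPM). The MDA231-LN values fell within the parental range. The means were 8.59 ± 0.196 CPM in MDA231-LN and 9.52 ± 2.26 CPM in the parental line (SD, n = 3 each), and the fitted log2 fold change was -0.15 ± 0.17 (SE). Parental replicate 2 was the low one, and without it the estimate was -0.34. CDH5 lies on chromosome 16 from 66366622 to 66404784, and PECAM1 on chromosome 17 from 64319415 to 64413776.

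MCAM, an adhesion molecule of endothelium, pericytes and melanoma also called CD146, was the most abundant of the 10 genes in the parental line. It had 60, 79 and 87 counts in MDA231-LN (3.07, 4.38 and 4.47 CPM) and 1184, 1184 and 1219 in the parental line (72.2, 75.0 and 65.2 CPM). The lines were far apart, with means of 3.97 ± 0.782 CPM in MDA231-LN and 70.8 ± 5.03 CPM in the parental line (SD, n = 3 each) and a fitted log2 fold change of -4.15 ± 0.12 (SE). MCAM lies on chromosome 11 from 119308529 to 119321521 of the minus strand and overlaps CBL, a ubiquitin ligase gene on the other strand, over 41.5% of its span and 57.3% of its exonic bases. Fragments from that part were not counted for either gene, so the MCAM counts leave out that part in both lines, and its effect on the difference was not tested. CBL fell as well, at 67.6 ± 6.33 CPM in MDA231-LN and 186 ± 20.9 CPM in the parental line (log2 fold change -1.46 ± 0.08; edgeR quasi-likelihood, Benjamini-Hochberg adjusted p = 5.48e-15).

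The order of the 10 genes within a line depended on the length by which counts were divided. Per kilobase of counted gene span, introns included, PDPN led in MDA231-LN with 0.723 ± 0.00672 CPM per kb, and its libraries overlapped those of SOX18 at 0.577 ± 0.149 (SD, n = 3). MCAM, PECAM1, PROX1 and ANGPT1 followed without overlap between neighbours, at 0.306, 0.0911, 0.0644 and 0.019 CPM per kb. Per kilobase of exon PDPN stood clear of the rest in MDA231-LN, at 6.73 ± 0.0625 CPM per kb, ahead of PECAM1 at 1.11 ± 0.0253. ANGPT1, SOX18, MCAM and PROX1, at 0.663, 0.638, 0.536 and 0.421 CPM per exonic kb, each overlapped the next. MCAM was divided by its full length, although fragments from the part shared with CBL were not counted. That part is 41.5% of its span and 57.3% of its exonic bases, so its place in MDA231-LN is not settled. The counts per kilobase of exon include intron fragments for every gene. In the parental line both scales put MCAM first and TIE1 second without overlap, at 5.45 and 0.955 CPM per kb of span and 9.54 and 3.16 CPM per kb of exon. Next in the parental line came SOX18 by span (0.211) and PECAM1 by exon (1.23), and TEK was last on both scales in both lines among genes above the floor.

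RefSeq promoter windows were at hand for 4 of the 10 genes, running from 250 bases before to 50 bases after the start, on GRCh38.p14. The window of PDPN and that of TIE1 are shown because these genes were at or near 0 in opposite lines. Those of TEK, the relative of TIE1 that was near 0 in both, and of MCAM are shown for comparison. Capitals mark GGAA, the core of the sites of ETS factors, which drive many endothelial genes, and its reverse complement TTCC on the other strand.
PDPN, chr1:13583507-13583806, plus strand: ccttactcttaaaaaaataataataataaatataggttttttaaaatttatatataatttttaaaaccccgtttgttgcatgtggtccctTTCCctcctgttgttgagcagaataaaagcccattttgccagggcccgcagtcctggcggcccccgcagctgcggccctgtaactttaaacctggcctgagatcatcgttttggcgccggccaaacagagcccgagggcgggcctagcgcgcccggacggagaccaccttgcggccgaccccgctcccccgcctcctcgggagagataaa
TIE1, chr1:43300732-43301031, plus strand: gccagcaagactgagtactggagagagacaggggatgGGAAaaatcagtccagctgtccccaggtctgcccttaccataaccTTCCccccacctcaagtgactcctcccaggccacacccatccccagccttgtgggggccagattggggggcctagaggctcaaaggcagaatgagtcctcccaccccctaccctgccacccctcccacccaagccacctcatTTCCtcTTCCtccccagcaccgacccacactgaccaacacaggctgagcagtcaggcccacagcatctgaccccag
TEK, chr9:27108975-27109274, plus strand: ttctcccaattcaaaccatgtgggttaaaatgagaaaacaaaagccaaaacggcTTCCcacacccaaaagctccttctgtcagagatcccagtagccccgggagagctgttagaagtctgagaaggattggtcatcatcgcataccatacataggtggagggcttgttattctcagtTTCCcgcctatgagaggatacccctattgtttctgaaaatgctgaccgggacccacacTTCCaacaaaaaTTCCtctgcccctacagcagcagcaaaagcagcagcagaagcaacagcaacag
MCAM, chr11:119317081-119317380, minus strand: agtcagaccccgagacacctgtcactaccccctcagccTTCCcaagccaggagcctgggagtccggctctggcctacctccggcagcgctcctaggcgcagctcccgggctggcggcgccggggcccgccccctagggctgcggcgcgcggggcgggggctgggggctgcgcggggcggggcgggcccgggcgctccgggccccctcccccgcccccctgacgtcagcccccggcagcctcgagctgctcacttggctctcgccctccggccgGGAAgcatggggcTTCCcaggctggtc
The core occurred 1 time in the PDPN window, 4 times in TIE1, 4 times in TEK and 3 times in MCAM, on both strands together. It occurs in 95.5% of 35116 promoter windows of this length, with a median of 3. The windows differed more in CG dinucleotides. The TIE1 window had 1 and TEK had 5, PDPN had 19 and MCAM had 29, against a median of 14 over all windows; 11% of windows had as few as TIE1. The GC box GGGCGG, searched on both strands and free of overlap with GGAA, matched 5 times in MCAM, 1 time in PDPN and not in TIE1 or TEK; 45.0% of all windows held at least 1 and 5.1% held at least 5. PDPN has 2 further starts in the table, whose windows held 22 and 6 CG dinucleotides, and TEK has 1 more with 3. The GGAA core matched 3 and 6 times in these further PDPN windows and 7 times in the further TEK window.

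Each gene was next set beside its chromosome region. Within 5 Mb of TIE1 113 genes were tested, with a median log2 fold change of 0.53 against 0.02 for all tested genes. Of the 113 genes 77 rose and 7 fell (edgeR), while 31.6% of all tested genes rose and 31.2% fell. TIE1 thus lay low in MDA231-LN amid neighbours that were mostly higher. The closest tested gene on the one side was EBNA1BP2, at 226 ± 10.6 CPM in MDA231-LN and 252 ± 18.7 CPM in the parental line (log2 fold change -0.16 ± 0.06). Its call was lost with upper-quartile scaling and without MDA231-LN replicate 1, MDA231-LN replicate 2 or parental replicate 1 (log2 fold change -0.04, -0.12, -0.16 and -0.11). CDC20-DT on the other side was at 1.17 ± 0.0935 CPM in MDA231-LN and 0.912 ± 0.255 CPM in the parental line and did not pass.

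Around MCAM the surroundings were lower as a whole. Of 63 genes tested within 5 Mb 46 fell and 8 rose, while 31.2% of all tested genes fell and 31.6% rose. The median log2 fold change was -0.90, while the lowest neighbour was at -1.94 and MCAM itself at -4.15. RNF26, the nearest tested gene on the side away from CBL, was at 64.5 ± 4.75 CPM in MDA231-LN and 115 ± 1.69 CPM in the parental line (log2 fold change -0.83 ± 0.07; edgeR quasi-likelihood, Benjamini-Hochberg adjusted p = 3.29e-11). The part of the regional shift in the MCAM value was not tested.

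PDPN and PROX1, both on chromosome 1, had neighbours with medians near 0. Around PDPN the median log2 fold change was -0.03 over 80 genes, with 22 rising and 27 falling. Around PROX1 it was -0.00077 over 39 genes, with 10 rising and 10 falling. Of all tested genes 31.6% rose and 31.2% fell. The median was 0.15 within 2 Mb of PDPN and -0.15 within 10 Mb of PROX1. The nearest tested genes to PDPN were PRDM2, at 36.4 ± 2.01 CPM in MDA231-LN and 32.8 ± 5.38 CPM in the parental line, which did not pass, and DHRS3, a retinal reductase gene, at 9.54 ± 1.15 CPM in MDA231-LN and 0.503 ± 0.168 CPM in the parental line. DHRS3 rose with a log2 fold change of 4.21 ± 0.28. With a parental mean under the filter cutoff of 0.5479 CPM, DHRS3 passed only through the MDA231-LN libraries, so no p is given. Its centre is 1008 kb from that of PDPN. On the side of PROX1 away from its antisense gene, SMYD2 fell slightly, at 54.9 ± 0.431 CPM in MDA231-LN and 64.0 ± 3.29 CPM in the parental line (log2 fold change -0.22 ± 0.07), a call that upper-quartile scaling ended (-0.11).

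**Figure D2:**
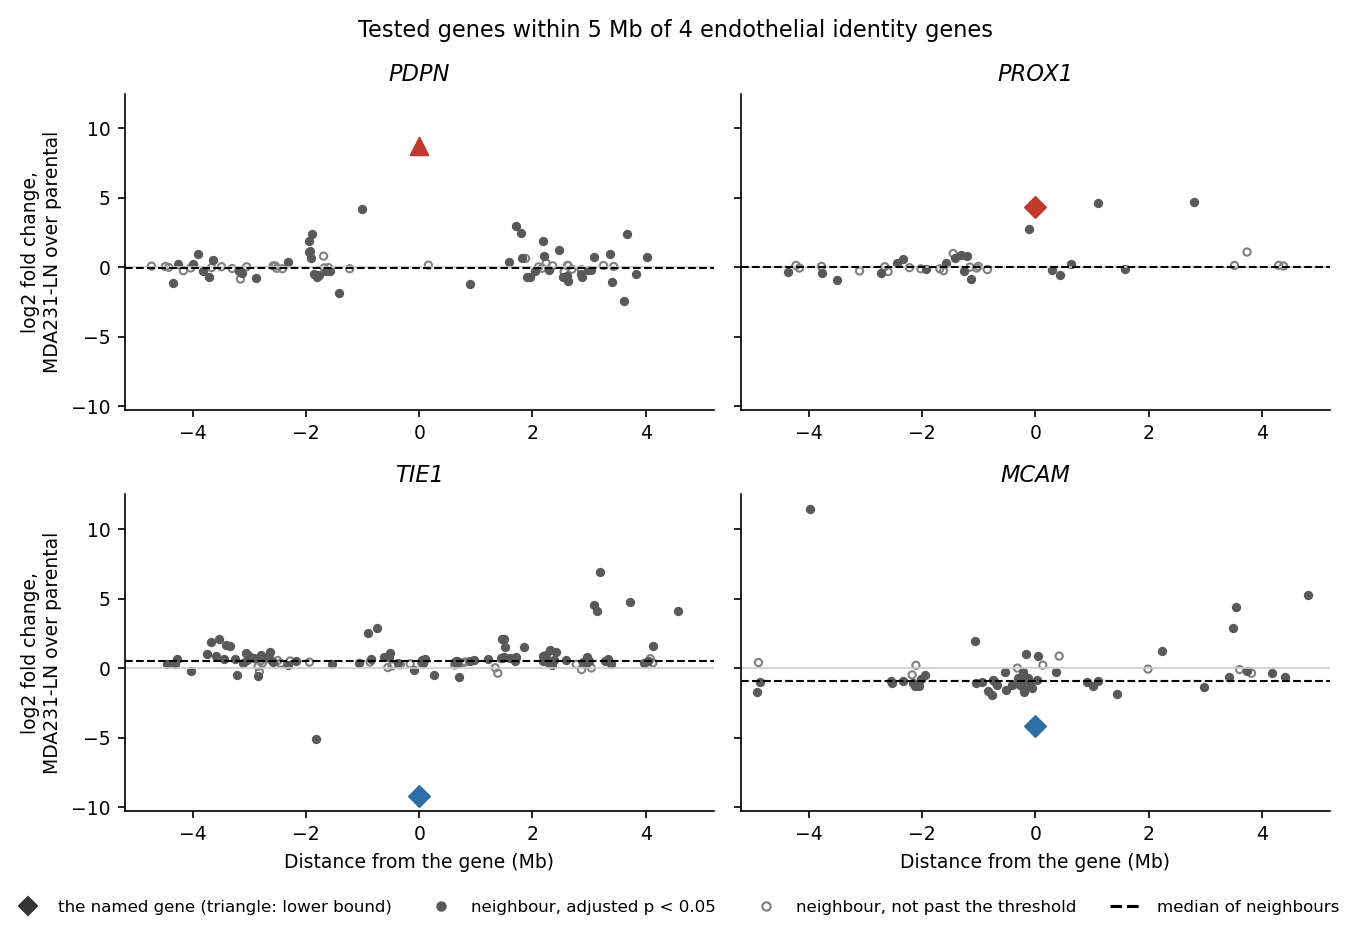
Log2 fold change of MDA231-LN over parental for tested genes within 5 Mb of PDPN, PROX1, TIE1 and MCAM, by distance between gene centres in Mb. Coloured symbols are the named genes: the PDPN triangle is a lower bound, the TIE1 diamond a ratio of counts and the others fitted values, while fitted values of neighbours with almost no counts in a line depend on the prior count. The dashed medians lie at 0.53 around TIE1 and at -0.90 around MCAM, and near 0 around PDPN and PROX1.

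For the other genes, median log2 fold changes within 5 Mb were 0.27 over 23 genes around ANGPT1 and -0.10 over 55 around SOX18. They were -0.11 over 65 genes around PECAM1, -0.03 over 89 around CDH5, 0.06 over 73 around LYVE1 and 0.08 over only 7 around TEK. The tested genes next to ANGPT1 on either side both rose, OXR1 by a log2 fold change of 0.30 ± 0.06 and EIF3E by 0.32 ± 0.05. Of the tested genes next to CDH5 TK2, 145 kb away, did not pass (log2 fold change -0.04 ± 0.22). CDH11, a cadherin gene 1351 kb away on the other side, rose, with 73.1 ± 0.717 CPM in MDA231-LN and 2.59 ± 0.156 CPM in the parental line (log2 fold change 4.81 ± 0.11). Beside TEK IFT74, at 163 kb, did not pass (0.21 ± 0.13), and MOB3B, at 258 kb, rose, with 12.4 ± 0.667 CPM in MDA231-LN and 0.769 ± 0.110 CPM in the parental line. Beside PECAM1 TEX2 did not pass (0.14 ± 0.07), though it did under 3 alternatives, and MILR1 fell, with 11.5 ± 0.437 CPM in MDA231-LN and 20.0 ± 1.55 CPM in the parental line. Beside SOX18 C20orf204 rose (0.89 ± 0.23) and TCEA2 did not pass (-0.07 ± 0.08). Beside LYVE1 neither RNF141 (0.07 ± 0.11) nor CTR9 (-0.04 ± 0.06) passed. For the genes of this paragraph said to have risen or fallen, Benjamini-Hochberg adjusted p from edgeR ran from 2.70e-22 for CDH11 to 0.00175 for C20orf204.

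A wider list of 25 lymphatic genes was then read from the fit over all genes. This list and those after it were drawn up with earlier results of these data known. Of 19 that could be tested 10 rose and 4 fell (73.7% called, against 62.8% of all tested genes). Of these, 6 rose and 2 fell at least 2-fold, against 1848 and 1068 of all 14176 tested genes. The median log2 fold change was 0.31 against 0.02. Among the risers NFATC1, a transcription factor of lymphatic valves, was at 9.37 ± 1.05 CPM in MDA231-LN and 1.95 ± 0.395 CPM in the parental line. MAF, a transcription factor also active in lymphatic endothelium, had 201 counts in MDA231-LN and 7 in the parental line, all in parental replicate 3. FLT4, the receptor for VEGF-C, had 46 counts in MDA231-LN and 2 in the parental line, a ratio of 20.5 with an exact 95% counting interval of 5.37 to 175. Its parental counts too were all in replicate 3, and the other parental libraries were at 0 for both genes. NR2F2, the partner of SOX18 and PROX1, fell: it was abundant in both lines, at 187 ± 2.11 CPM in MDA231-LN and 402 ± 11.1 CPM in the parental line (log2 fold change -1.10 ± 0.05). CCBE1, a secreted protein that aids the maturation of VEGF-C, fell too, to 27.3 ± 1.3 CPM in MDA231-LN, against 55.5 ± 2.04 CPM in the parental line. Adjusted p for NR2F2, CCBE1 and NFATC1 ran from 8.91e-16 for NR2F2 to 9.65e-10 for NFATC1 (edgeR quasi-likelihood, Benjamini-Hochberg). MAF and FLT4 reached enough counts for the fit through the MDA231-LN libraries alone. Both thus had to differ, so their p is left out, and the count of risers includes them. It also includes STAB2, at 0.879 CPM in MDA231-LN and 0.0942 CPM in the parental line, under the filter cutoff of 0.5479 CPM. The share called thus holds calls that the filter favoured. The chemokine gene CCL21 and the connexin gene GJA4 lie wholly inside other genes and could not be measured, and FOXC2, a factor of lymphatic valves, had 0 counts, although 35.1% of its exons are covered by another gene. Without MDA231-LN replicate 2 the list median was 0.50, and with no filter 0.61.

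Of 31 blood endothelial genes 16 could be tested, and 8 fell while 4 rose (75% called, against 62.8% of all tested genes). Of these, 7 fell and 2 rose at least 2-fold, against 1068 and 1848 of all 14176 tested genes. The list had a median log2 fold change of -0.70. ESAM, a junction adhesion molecule of endothelium and platelets, was at 12.1 ± 0.488 CPM in MDA231-LN and 189 ± 10.3 CPM in the parental line (log2 fold change -3.96 ± 0.08). FLI1, an ETS factor of endothelium and blood, had 0 counts in MDA231-LN and 53 in the parental line. It was 19.8-fold lower against the floor of 3 counts over the MDA231-LN libraries. The exact 95% counting interval of its MDA231-LN to parental ratio ended at 0.0643. ESAM, FLI1 and ROBO4, which did not pass, lie within 10 Mb of MCAM on chromosome 11, where the median log2 fold change was -0.86. The part of that regional shift in their values was not tested. LYL1, a basic helix-loop-helix factor, had 13 counts in MDA231-LN and 94 in the parental line (log2 fold change -3.00, and -3.74 without MDA231-LN replicate 1). On the other side S1PR1, a receptor for sphingosine 1-phosphate, was at 5.32 ± 0.960 CPM in MDA231-LN and 1.41 ± 0.0714 CPM in the parental line. MMRN2, a matrix glycoprotein of vessels, had 88 counts in MDA231-LN and 2 in the parental line, a ratio of 39.3 with an exact 95% counting interval of 10.5 to 329, and both parental counts were in replicate 3. Adjusted p was 8.84e-24 for ESAM and 7.36e-07 for S1PR1 (edgeR quasi-likelihood, Benjamini-Hochberg). FLI1 and LYL1 reached enough counts for the fit through the parental libraries alone, and MMRN2 through the MDA231-LN libraries alone. These genes thus had to differ, so their p is left out, and the counts of falls and rises include them. Of the genes that could not be tested, 6 had 0 counts in both lines; SELE lies wholly inside other genes and ECSCR with 96.5% of its exons, so their 0 is no measure. The list median was -1.14 without parental replicate 2 and -0.22 with no filter. The lymphatic list leaned higher and the blood endothelial list lower, but both were drawn up with earlier results of these data known. The difference between the lists was not tested, and nothing is read from it.

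In the angiopoietin-TIE pathway 10 of 15 genes could be tested, and 3 rose and 3 fell (60% called, against 62.8% of all tested genes). The median log2 fold change of 0.24 dropped to 0.15 without MDA231-LN replicate 2, 0.12 without parental replicate 1 and 0.06 without parental replicate 3. GRB7, an adaptor that binds activated TEK, rose (2.03 ± 0.238 CPM in MDA231-LN and 0.810 ± 0.146 CPM in the parental line; edgeR quasi-likelihood, Benjamini-Hochberg adjusted p = 0.00527). PTPRB, the phosphatase that opposes TEK and VE-cadherin phosphorylation, fell (1.08 ± 0.546 CPM in MDA231-LN and 2.49 ± 0.139 CPM in the parental line; adjusted p = 0.00739 in the same test), and another gene covers 50.9% of its exons. ANGPT4, a further ligand, was at 4.8 ± 0.789 CPM in MDA231-LN and 4.78 ± 0.839 CPM in the parental line and did not pass. ANGPT2, the antagonist ligand, lies wholly inside another gene and was not measured.

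Among 43 genes that act with PDPN, LYVE1, CDH5, PECAM1 and MCAM, 36 could be tested. Of these, 11 rose and 20 fell (86.1% called, against 62.8% of all tested genes). The median log2 fold change was -0.25, and -0.14 with upper-quartile scaling. The ERM proteins that anchor podoplanin to actin moved unequally. MSN, for moesin, fell to 715 ± 21.2 CPM in MDA231-LN, against 1788 ± 30.4 CPM in the parental line, and RDX, for radixin, fell to 113 ± 4.13 CPM, against 299.7 ± 18.5 CPM in the parental line. EZR, for ezrin, was at 489 ± 20.8 CPM in MDA231-LN and 489 ± 18.9 CPM in the parental line and did not pass. HAS2, which makes the hyaluronan that LYVE1 binds, rose to 119 ± 2.82 CPM in MDA231-LN, against 11.8 ± 0.914 CPM in the parental line. Reported ligands of MCAM moved in both directions. NTN1, for netrin-1, was at 54.8 ± 2.62 CPM in MDA231-LN and 0.237 ± 0.0205 CPM in the parental line. LAMA4, for the laminin alpha-4 chain, was at 6.30 ± 1.46 CPM in MDA231-LN and 0.489 ± 0.239 CPM in the parental line. LAMA5, for the alpha-5 chain, fell, with 75.9 ± 6.05 CPM in MDA231-LN and 507 ± 44.8 CPM in the parental line. Adjusted p for MSN, RDX, HAS2 and LAMA5 ran from 6.82e-22 for HAS2 to 6.38e-17 for RDX (edgeR quasi-likelihood, Benjamini-Hochberg). NTN1 reached enough counts for the fit through the MDA231-LN libraries alone, so it had to differ, and its p is left out. LAMA4, with a parental mean under the filter cutoff of 0.5479 CPM, also passed only through MDA231-LN, and its p is left out too. The count of rises includes NTN1, LAMA4 and STAB2, which passed in the same way. EZR, ANGPT4 and the list genes given above with 0 or few counts that could not be tested were named after their values were seen. CCL21 and STAB2 stand on this list and the lymphatic one, and PTPRB on this list, the blood endothelial one and the angiopoietin-TIE one.

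**Figure D3:**
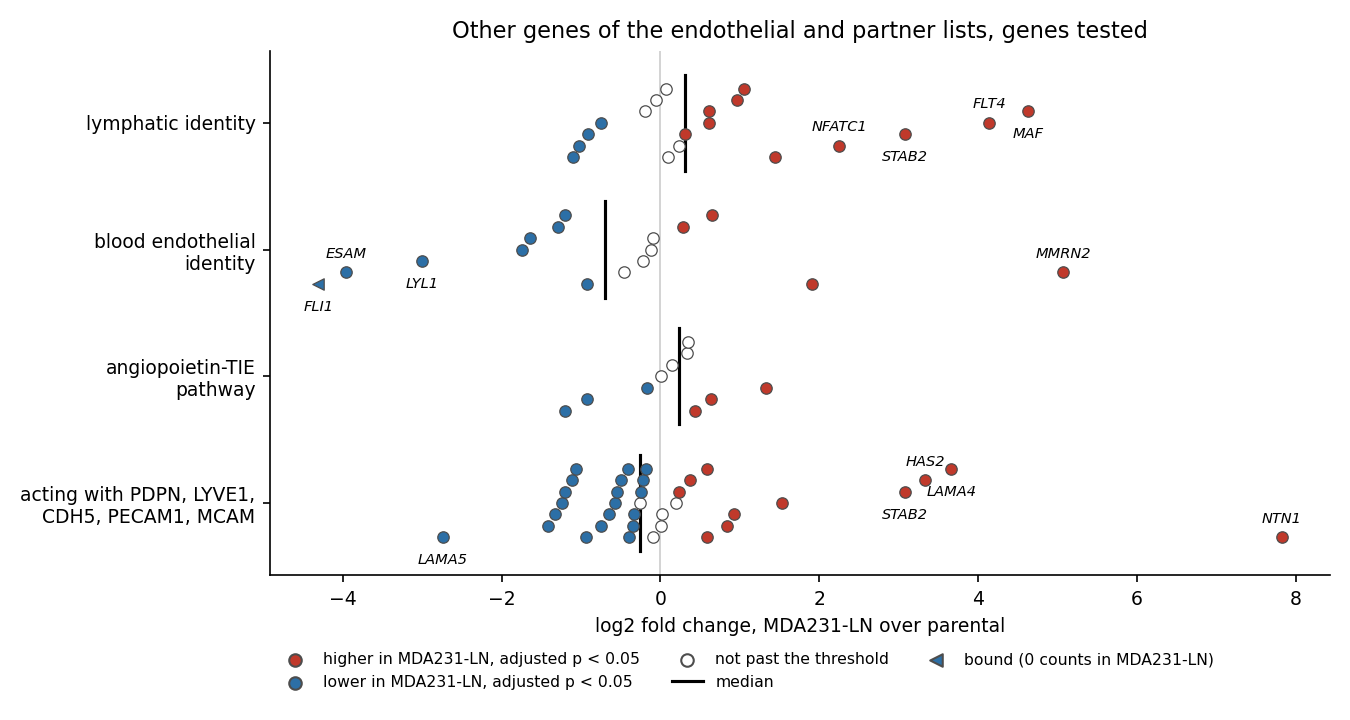
Log2 fold change of MDA231-LN over parental for the tested genes of 4 lists that leave out the 10 genes. Red points were higher and blue points lower in MDA231-LN past the edgeR threshold, open points did not pass, black bars are list medians, and the FLI1 triangle is a bound. The median is 0.31 for the lymphatic list and -0.70 for the blood endothelial list, and both lists hold points on either side of 0.

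Over the 6 libraries the genes with patterns closest to those of 4 members were found by the Euclidean distance of log2 CPM centred on the mean of each gene, which mostly follows the difference between the lines. For PDPN these were NTN1, SPOCK1 and KCNQ3 (distances 0.648, 0.773 and 0.842), and for TIE1 STXBP6, PLCB4 and ZNF716 (0.829, 1.26 and 1.48). For MCAM they were FRG1CP, PEAR1 and ESAM (0.470, 0.473 and 0.486). For ANGPT1 they were ZBTB46, SOX5 and STRIP2 (0.153, 0.207 and 0.213). With Pearson correlation as the measure other genes came first for all 4, NCAM1 and ACTG2 among them for PDPN.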

How the data were processed

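RNA-seq of 3 MDA231-LN and 3 parental libraries was re-analysed from the deposited table of raw counts. Per the file headers the authors counted fragments with featureCounts 2.0.1 on Ensembl annotation release 105 of GRCh38, over whole gene spans with introns, ignoring strand and leaving out fragments that touch more than 1 gene. The submitters' processing notes name STAR, featureCounts, Subread and DESeq2; the STAR version is not given in the sources used here. Libraries were grouped by the cell line in the labels, and gene symbols were matched for 99.7% of genes.

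Genes were filtered with filterByExpr, scaled by TMM and tested by quasi-likelihood in edgeR 4.0.16 under R 4.3.3, with Benjamini-Hochberg adjustment over 14176 genes. A gene is said to have risen or fallen in MDA231-LN where that p was below 0.05. Fitted fold changes are on the log2 scale with the default prior count of edgeR. Floors (3 counts over the libraries of a line) and exact 95% intervals cover counting error only. Exonic bases come from GENCODE 29, promoters from RefSeq. The group of 10 genes and the lists were chosen with earlier results of these data known. The rule for names took every member, up to 3 genes per list and direction with the smallest adjusted p among those changed at least 2-fold without overlap, the nearest tested gene on each side, and the 3 closest autosomal patterns for 4 members. Alternatives were RLE and upper-quartile scaling, other filters, DESeq2 1.42.0, limma-voom 3.58.1, a block for replicate number, omission of single libraries, an adjusted p under 0.01, a prior count of 2, other windows and Pearson correlation. The fit was tested on simulated data. No library was left out of the reported values. No 2 libraries of a line agreed within counting noise (chi-square per degree of freedom 3.73 to 8.47). Figures were drawn with matplotlib 3.10.9 in Python 3.11.15.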

Additional observations from a re-analysis of the deposited data

How the results depend on the processing

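The number of genes past the threshold was 8904 as reported and 7583 (adjusted p under 0.01) to 9361 (no filter) over the alternatives. It was 8262 to 8889 when single libraries were left out. No count over all genes or in a list moved by more than 1.5 times. With upper-quartile scaling all tested genes had a median log2 fold change of 0.13, against 0.02 as reported, with 5415 genes higher and 3603 lower in MDA231-LN against 4482 and 4422 as reported, and without a filter the median was 0.15. The median around PDPN changed sign, to 0.15 within 2 Mb, and that around PROX1 was -0.15 within 10 Mb; the cause was not tested. Fitted values of PDPN (7.82 to 11.86) and TIE1 (-9.34 to -7.18) varied over the alternatives: both were smallest in size with a prior count of 2, while PDPN was highest with upper-quartile scaling and TIE1 lowest without MDA231-LN replicate 2. The other fitted genes of the 10 kept their sign, SOX18 at 1.21 to 1.63 and PROX1 at 3.74 to 4.93 among them. Among the genes nearest to them PRDM2 passed with upper-quartile scaling (0.26) and without parental replicate 3 (0.28), IFT74 with upper-quartile scaling (0.33), and TEX2 with RLE scaling, upper-quartile scaling and a filter of 1 CPM (0.15, 0.25 and 0.15). With the replicate block 8591 genes passed, 4325 higher and 4266 lower. Same-numbered libraries deviated with correlations of -0.0039, 0.0024 and -0.0526, so the numbers give no pairing. Depth limits TEK, CDH5 and SOX18 most, with 7, 3 and 68 counts in MDA231-LN and 5, 0 and 22 in the parental line.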
